A study of Homo sapiens with 8 samples.

Results

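Aminoacyl-tRNA synthetases were followed in RNA of 143B cells, an osteosarcoma line long established in culture, at 48 h of transient transfection with a plasmid for NELL1 knockout (4 libraries) or with vector plasmid (4 control libraries). All 8 libraries came from the same line, carried no other labelled agent and were made from total RNA with a stranded kit. The cells were transfected transiently, no clone is named, and the share of cells edited is not given in the sources used here. The members were all symbols built from an amino acid letter followed by ARS, with the ending 1, 2 or none, plus EPRS1, FARSA and FARSB, that had a value in all 8 libraries. This gave 37 of 54174 symbols, with 20 cytosolic genes (ending 1 or none) and 17 mitochondrial genes (ending 2). The deposited values are on a log2 scale and were made to follow the same distribution in every library, so a value gives the place of a transcript among all transcripts of its library. Of the members, 36 reached the mean of at least 1 that was required for testing, all 20 cytosolic genes among them. FARS2, the mitochondrial phenylalanyl-tRNA synthetase, did not: it read -0.16, -0.20, 0.37 and 0.23 in control libraries 1 to 4 and 0.09, 0.03, 0.17 and 0.18 in knockout libraries 1 to 4.

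Aminoacyl-tRNA synthetases attach each amino acid to its tRNA, the step that sets the genetic code at the ribosome. Most amino acids have separate nuclear genes for the cytosolic and the mitochondrial enzyme, while GARS1 and KARS1 each serve both compartments. Several cytosolic enzymes are held on scaffold proteins in a multisynthetase complex. When amino acids run short, uncharged tRNA activates the kinase GCN2, translation of the transcription factor ATF4 rises, and ATF4 raises many cytosolic synthetase genes together with amino acid transporters and biosynthetic enzymes.

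Facts of the whole series bear on every value below. Each library had a value for 14911 to 15171 genes. The NELL1 transcript lay near the bottom of the range, from -6.97 to -4.53 in the controls and from -6.96 to -4.82 in 3 knockout libraries, with a blank cell in knockout library 3, so it does not separate the groups and does not check the labels. The knockout libraries formed 2 close pairs: the SD over 9016 tested genes of the difference between libraries was 0.12 for knockouts 1 and 2 and 0.13 for knockouts 3 and 4, but 0.46 to 0.50 between these pairs. Control library 3 differed from controls 1 and 2 by 0.29 and 0.27, against 0.10 between controls 1 and 2. Results are therefore also given for replicates 1-2 and replicates 3-4 apart, sets that the labels do not name. The p-values over 8 libraries count the close knockout libraries, and the close controls 1 and 2, as independent. As for identity, the mesenchymal marker VIM was between 10.19 and 10.87 in all libraries, the osteoblast markers RUNX2 and ALPL were low (0.05 to 0.43 and -1.75 to -0.34), SP7 was blank throughout, and of the 5 blood markers PTPRC, CD3E and HBB were blank throughout, CD14 had a low value in 6 libraries (-4.90 to -2.67) and CD68 was present in all (5.54 to 5.90). Markers moved with the groups too: SPARC and the keratin KRT8 rose by 0.62 and 0.38 and VIM fell by 0.43 (limma adjusted p = 0.0294, 0.0175 and 0.0425, and 0.0507 for VIM with the replicate number as a block). Of the 5 epithelial markers, KRT8 and KRT18 were high in all libraries (6.52 to 7.10 and 8.75 to 9.13), EPCAM was between 1.83 and 2.76, KRT19 had a value in 6 libraries and the defining marker CDH1 in 2, both of them controls. Their part in the results was not tested.

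Of the cytosolic synthetase transcripts, SARS1, CARS1, GARS1, IARS1 and MARS1, fell by 0.38 to 0.85 log2 units, 5 of 20 genes, and FARSB, the beta subunit of phenylalanyl-tRNA synthetase, rose by 0.29. Genes were called by limma where the p-value, adjusted after Benjamini and Hochberg, was below 0.05. So counted, 6 of 20 cytosolic genes were called, 5 lower and 1 higher, where 13.1% of all tested genes were called, 6.1% lower and 7.02% higher. The median difference over the 20 genes was -0.20, beside 0.01 over all tested genes, and 13 of the 20 differences were below 0. The members and the division by compartment were chosen with earlier results of these data known, and no test was made of the list as a whole. Without control 3 the count was again 6, all lower, 5 of them called over all libraries too and FARSB not among them. In that fit 1353 of all 9016 tested genes were called, 613 of them lower. Without control 4 the cytosolic count was 3, beside 391 of the 9016. With a term for the replicate set the cytosolic count was 9, of which 8 were lower (25.2% of all tested genes were called). With each close pair of knockout libraries averaged it was 1 (1.2% of all tested genes).

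**Figure D1:**
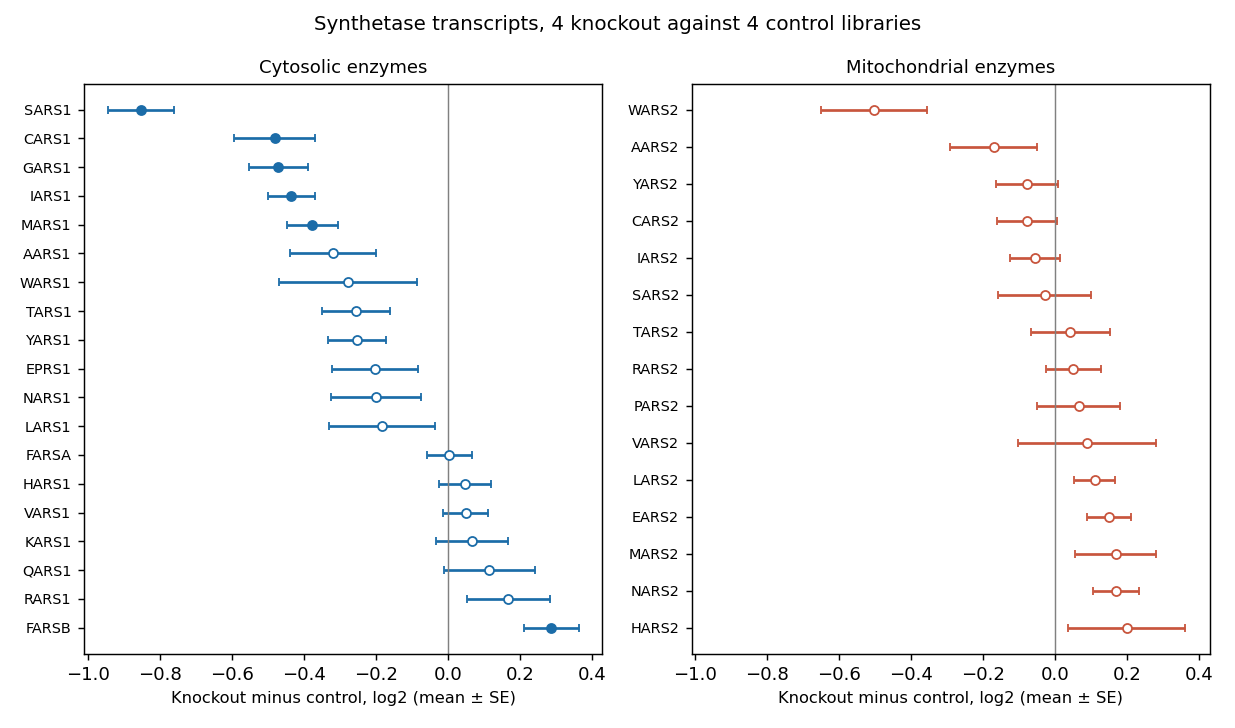
Knockout minus control difference in log2 units (mean ± SE from limma, 4 libraries in each group) for 19 of the 20 cytosolic and 15 of the 16 mitochondrial synthetases tested. Filled points passed an adjusted p-value of 0.05: 5 cytosolic genes below 0, FARSB above 0, and no mitochondrial gene.

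SARS1, the cytosolic seryl-tRNA synthetase, had the largest difference of the family. Its values were 8.17, 8.15, 8.25 and 8.20 in control libraries 1 to 4 and 7.45, 7.53, 7.17 and 7.21 in knockout libraries 1 to 4. The groups did not overlap, and every knockout library lay at least as low as 7.53 while no control lay under 8.15. The fall was -0.85 ± 0.09 (SE), a level 0.554 times that of the controls (limma adjusted p = 0.00175). Of the 6 called cytosolic genes, only SARS1 stayed called when each close pair of knockout libraries was averaged and counted as 1 library. Its limma adjusted p there was 0.0270, beside a background of 1.2% of all tested genes called. That fit still counted the 4 controls as independent, although controls 1 and 2 were as close as the knockout pairs (SD 0.10, against 0.12 and 0.13).

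CARS1, the cysteinyl-tRNA synthetase, read 5.59, 5.65, 5.30 and 5.53 in the controls and 5.14, 5.24, 4.88 and 4.89 in the knockouts. Control 3 was the lowest control and still lay above knockout 2, the highest knockout. The difference was -0.48 ± 0.11 (SE; limma adjusted p = 0.0276). The call was lost without control 1, 2 or 4 or without knockout 3 or 4, with limma adjusted p-values of 0.0866, 0.0903, 0.0826, 0.0664 and 0.0560.

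GARS1, which makes glycyl-tRNA synthetase for cytosol and mitochondria, read 7.29, 7.31, 7.07 and 7.31 in the controls and 6.81, 6.86, 6.65 and 6.77 in the knockouts. Control 3 again stood below the other controls, yet above every knockout library. The difference was -0.47 ± 0.08 (SE; limma adjusted p = 0.00992). KARS1, the other gene that serves both compartments, did not pass the test (0.07 ± 0.10, SE; limma adjusted p = 0.691).

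IARS1 and MARS1, the isoleucyl- and methionyl-tRNA synthetases, belong to the multisynthetase complex. IARS1 read 7.13, 7.18, 6.99 and 7.09 in the controls and 6.59, 6.67, 6.72 and 6.67 in the knockouts, a difference of -0.43 ± 0.07 (SE; limma adjusted p = 0.00663). The knockout values of IARS1 lay close together, with knockouts 2 and 4 alike. MARS1 read 6.28, 6.29, 6.36 and 6.32 in the controls and 5.80, 5.90, 6.04 and 6.01 in the knockouts, a difference of -0.38 ± 0.07 (SE; limma adjusted p = 0.0131, and 0.0545 without control 4). Here control 3 was the highest control. With the knockout pairs averaged, the limma adjusted p-values of CARS1, GARS1, IARS1 and MARS1 were 0.127, 0.0795, 0.0731 and 0.0880.

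FARSB was the called gene that rose. It read 3.02, 3.14, 3.01 and 3.18 in the controls and 3.47, 3.44, 3.26 and 3.32 in the knockouts, a difference of 0.29 ± 0.08 (SE; limma adjusted p = 0.0410). Its call was lost with the replicate number as a block (limma adjusted p = 0.0734, beside 10.2% of all tested genes called), with no filter on the mean (0.0657), with the knockout pairs averaged (0.174), and in 7 of the 8 fits that left out 1 library (limma adjusted p = 0.0577 to 0.120), all but the fit without knockout 3. FARSA, which encodes the alpha subunit of the same enzyme, differed by 0.00 ± 0.06 (SE; limma adjusted p = 0.975).

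**Figure D2:**
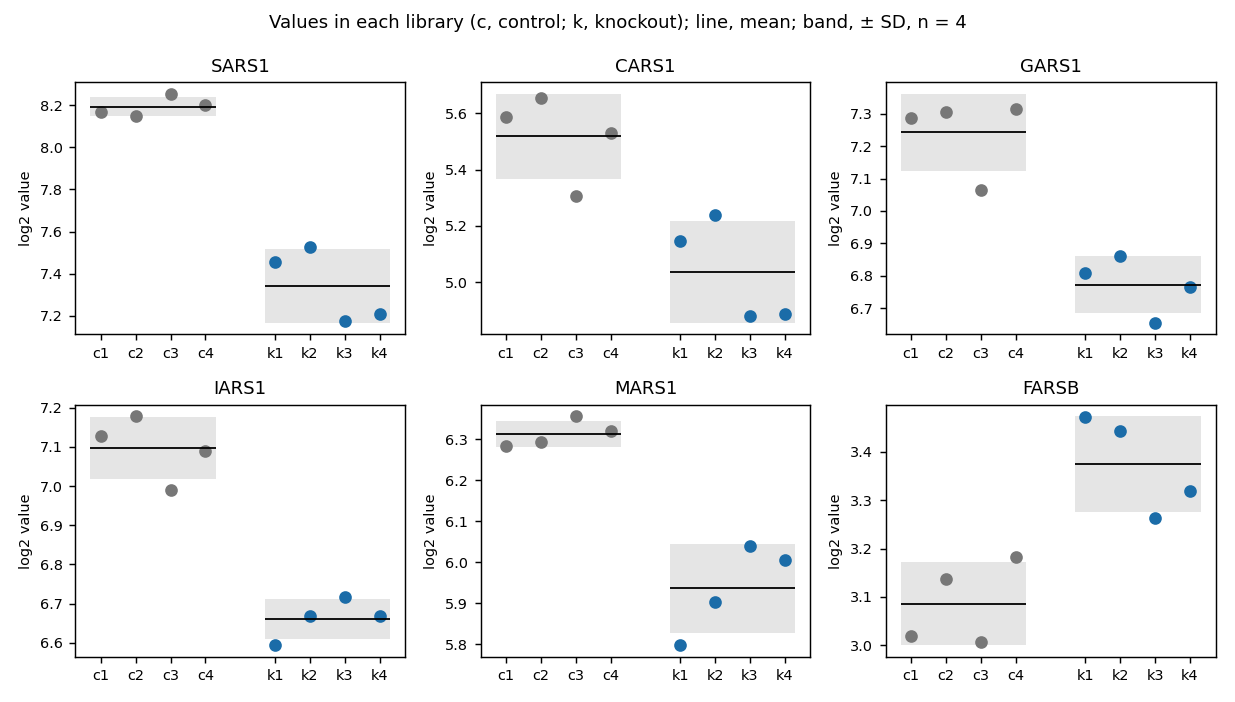
Deposited log2 value in each library for the 6 called synthetases, controls (c1 to c4) in grey and knockouts (k1 to k4) in blue, with the group mean as a line and ± SD (n = 4) as a band. In all 6 panels the knockout values lie on one side of the control values, and each vertical axis has its own range.

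Among the cytosolic genes that did not pass, AARS1 and WARS1 had the largest differences. AARS1, the alanyl-tRNA synthetase, read 7.52, 7.53, 7.30 and 7.46 in the controls and 7.27, 7.38, 6.87 and 7.01 in the knockouts (-0.32 ± 0.12, SE; limma adjusted p = 0.113). WARS1, the tryptophanyl-tRNA synthetase, which interferon gamma is known to induce, read 7.62, 7.59, 7.05 and 7.48 in the controls and 7.44, 7.50, 6.85 and 6.85 in the knockouts (-0.28 ± 0.19, SE; limma adjusted p = 0.378). In both genes control 3 lay below knockout 2, so the groups overlapped. TARS1 (-0.26), YARS1 (-0.25), EPRS1 (-0.20), NARS1 (-0.20) and LARS1 (-0.18) also had values below 0, with limma adjusted p-values from 0.0727 for YARS1 to 0.450 for LARS1. The knockout and control values of YARS1 did not overlap. With the term for the replicate set, AARS1, TARS1 and YARS1 were called (limma adjusted p = 0.0195, 0.0353 and 0.0235), and with the knockout pairs averaged they were not (0.235, 0.270 and 0.209). HARS1 (0.05), VARS1 (0.05), QARS1 (0.12) and RARS1 (0.17) had values above 0, with limma adjusted p-values from 0.371 to 0.702.

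The called genes lay both inside and outside the multisynthetase complex, and the counts that follow stand beside 13.1% of all tested genes called, 6.1% lower. Of the 8 complex members, EPRS1, LARS1, IARS1 and MARS1 among them, 2 were called, both lower, with a median difference of -0.18. Of the 12 cytosolic genes outside it, 3 were lower and 1 higher, with a median of -0.25. The scaffolds AIMP1, AIMP2 and EEF1E1 differed by -0.11, -0.14 and 0.15, and limma called 0 of the 3. None had an unadjusted p-value under 0.05 either, beside 2675 of the 9016 tested genes. AIMP1, named after its values were seen, rose by 0.23 in replicates 1-2 and fell by 0.46 in replicates 3-4 (limma adjusted p of the difference = 0.00177). By catalytic fold, 3 of 9 cytosolic class I genes were called, all lower, and 3 of 10 class II genes, 2 lower and 1 higher. EPRS1 joins an enzyme of each class and is in neither count.

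The region around the start site was compared for members whose promoter was in the RefSeq table (GRCh38.p14, 250 bases before to 50 after the first listed start), which held 30 of the 37, 16 cytosolic and 14 mitochondrial. LARS1, VARS1, YARS1, AARS2 and VARS2 were among those with no entry. The letters searched were TGATGNAA on either strand, the core of the C/EBP-ATF response element through which ATF4 is known to act. They occurred in 6 of 16 cytosolic promoters (37.5%) and 1 of 14 mitochondrial ones (7.14%), beside 1.59% of the 7423 promoters of tested genes and 3.67% of all 27305. The matching stretches are shown because they are where the promoters of several called genes read alike. Each is 30 bases, 5′ to 3′ on the strand of the gene, with the match in capitals.
CARS1: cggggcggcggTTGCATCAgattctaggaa
IARS1: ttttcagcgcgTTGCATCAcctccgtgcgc
MARS1: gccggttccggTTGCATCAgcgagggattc
AARS1: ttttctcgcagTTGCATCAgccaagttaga
TARS1: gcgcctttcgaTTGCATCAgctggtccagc
NARS1: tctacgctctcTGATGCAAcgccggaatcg
YARS2: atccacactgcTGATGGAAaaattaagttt

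These lie at chr11:3057407-3057436 (CARS1, minus strand), chr9:92293692-92293721 (IARS1, minus), chr12:57488053-57488082 (MARS1, plus), chr16:70289675-70289704 (AARS1, minus), chr5:33440956-33440985 (TARS1, plus), chr18:57621804-57621833 (NARS1, minus) and chr12:32756076-32756105 (YARS2, minus). The match began 2, 13 and 4 bases before the start site of CARS1, IARS1 and MARS1, and 2 and 14 bases after that of TARS1 and NARS1. In AARS1 and YARS2 it began 187 and 197 bases before it. All 6 cytosolic matches read TGATGCAA on one strand or the other, letters found in 0.525% of the promoters of tested genes and in none of the 14 mitochondrial ones. Of the 5 cytosolic genes called lower, 3 had a match in this window and SARS1 and GARS1 had none. GARS1 had a match (TTTCATCA on the strand of the gene) at another listed start. With every listed start searched, 7 of 16 cytosolic and 1 of 14 mitochondrial genes had a match, beside 2.64% of the 7423 tested genes. The E-box letters CACGTG, a MYC site, were found in 1 of 16 cytosolic and 3 of 14 mitochondrial promoters, beside 10.6% of those of tested genes. A match describes these letters in this window and does not show binding.

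Mitochondrial synthetase transcripts showed no common direction. Limma called 0 of 16 tested genes (3 at an unadjusted p-value under 0.05, of which 2 were higher), where 13.1% of all tested genes were called. Of all 9016 tested genes, 2675 had an unadjusted limma p-value under 0.05, 1441 of them higher. The median difference over the 16 mitochondrial genes was 0.06, with 10 values above and 6 below 0. WARS2, the mitochondrial tryptophanyl-tRNA synthetase, had the largest difference and stood just beyond the threshold. It read 5.84, 5.84, 5.96 and 5.91 in the controls and 5.07, 5.14, 5.71 and 5.61 in the knockouts. All knockout values were below all controls, and knockouts 1 and 2 were the lowest. The difference of -0.50 ± 0.15 (SE) had a limma adjusted p of 0.0557, of 0.0467 with the replicate number as a block, of 0.00815 with a term for the replicate set and of 0.0332 without knockout 3. It was 0.143 with the knockout pairs averaged, 0.0853 with no filter on the mean, and 0.0503 to 0.139 when any other single library was left out.

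NARS2 and EARS2 lay above every control in all 4 knockout libraries. NARS2, for asparagine, read 2.64, 2.60, 2.60 and 2.53 in the controls and 2.82, 2.77, 2.66 and 2.80 in the knockouts (0.17 ± 0.06, SE; limma adjusted p = 0.114). EARS2, for glutamate, read 2.61, 2.70, 2.57 and 2.68 in the controls and 2.83, 2.85, 2.76 and 2.73 in the knockouts (0.15 ± 0.06, SE; limma adjusted p = 0.150). LARS2, for leucine, did not overlap between the groups either (0.11 ± 0.06, SE; limma adjusted p = 0.246). Over the family, 7 of 20 cytosolic and 4 of 16 mitochondrial genes did not overlap, 6 and 1 of them lower, beside 22.9% of all tested genes (10.4% lower and 12.5% higher).

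For HARS2, MARS2 and AARS2 the knockout libraries split into their pairs. HARS2, for histidine, read 3.23, 3.35, 3.16 and 3.34 in the controls and 3.78, 3.78, 3.17 and 3.15 in the knockouts. MARS2, for methionine, read 2.62, 2.57, 2.65 and 2.57 in the controls and 2.99, 2.95, 2.56 and 2.57 in the knockouts. In both genes knockouts 1 and 2 were above every control and knockouts 3 and 4 were in or just below the control range. AARS2, for alanine, read 3.16, 3.16, 3.00 and 3.16 in the controls and 3.17, 3.15, 2.76 and 2.71 in the knockouts, so that knockouts 3 and 4 lay well below every control and knockouts 1 and 2 lay close to controls 1, 2 and 4. YARS2, CARS2, IARS2, SARS2, TARS2, RARS2, PARS2 and VARS2 differed by -0.08 to 0.09, with limma adjusted p-values of 0.561 or more.

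Among the members, 14 amino acids have 1 cytosolic and 1 mitochondrial gene each, and for 12 of the 14 the cytosolic difference was the lower of the pair. In 5 pairs the cytosolic value was below and the mitochondrial value above 0, in 6 both were below 0 and in 3 both were above 0. The pair for serine was farthest apart, with -0.85 for SARS1 and -0.03 for SARS2, followed by methionine with -0.38 for MARS1 and 0.17 for MARS2. The exceptions were tryptophan, with -0.28 for WARS1 and -0.50 for WARS2, and arginine, with 0.17 for RARS1 and 0.05 for RARS2. These counts are a description, and the difference between the compartments was not tested.

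The pairs of replicates were then set side by side in a model with a separate knockout effect in replicates 1-2 and in replicates 3-4. Both sets rest on 2 libraries a group, and the model gives both sets the same error for a gene. The SD over tested genes of the difference was 0.19 between controls 3 and 4. It was 0.10 between controls 1 and 2, and 0.12 and 0.13 in the knockout pairs. The agreement of the closer pairs keeps that shared error small, also for replicates 3-4. In replicates 1-2, limma called 6 cytosolic genes lower and 3 higher, beside 47.9% of tested genes called, 21.3% lower and 26.6% higher, and the median cytosolic difference was -0.12. In replicates 3-4 it called 11 of 20 cytosolic genes lower and 1 higher, beside 44.1% of tested genes called, 22.8% lower and 21.3% higher, and the median was -0.32. The same 5 genes called lower over all 8 libraries, SARS1, CARS1, GARS1, IARS1 and MARS1, were called lower in both sets. Those calls rest on the same libraries as the sets, so this is a description and no separate check. Over all tested genes, chosen by no such call, 6.8% were called lower in both. The mitochondrial genes counted 4 higher and 2 lower in replicates 1-2 (median 0.09), and 1 higher and 3 lower in replicates 3-4 (median -0.04). WARS2 was the mitochondrial gene lower in both.

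**Figure D3:**
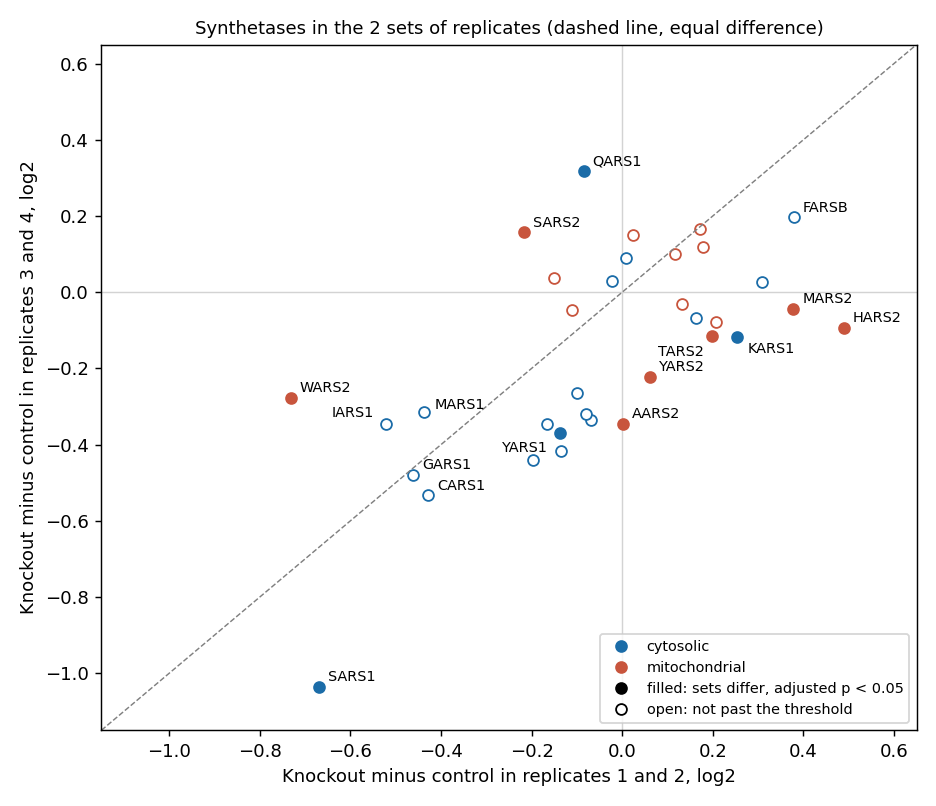
Knockout minus control difference in log2 units in replicates 1 and 2 (horizontal) and in replicates 3 and 4 (vertical) for 34 of the 36 tested synthetases, each difference from 2 libraries a group. Filled points differed between the sets at an adjusted p-value under 0.05, and points under the dashed line, such as SARS1 and HARS2, were lower in replicates 3 and 4.

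The knockout effect differed between the sets for 11 of 36 tested synthetases (limma interaction, adjusted p-value under 0.05), beside 41.3% of all tested genes. HARS2 changed most, with 0.49 in replicates 1-2 and -0.09 in replicates 3-4 (difference -0.58 ± 0.11, SE; limma adjusted p = 0.00293). Its neighbour HARS1 starts 85 bases away on the opposite strand of chromosome 5, and read 0.16 and -0.07 in the sets, a difference of -0.23 that did not pass (limma adjusted p = 0.0764). WARS2 fell by 0.73 in replicates 1-2 and by 0.28 in replicates 3-4 (limma adjusted p of the difference = 0.00468). SARS1 fell by 0.67 and by 1.04, the larger fall being in replicates 3-4 (limma adjusted p of the difference = 0.00943).

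QARS1, the glutaminyl-tRNA synthetase, read -0.09 in replicates 1-2 and rose by 0.32 in replicates 3-4, against the direction of most cytosolic genes there (limma adjusted p of the difference = 0.00818). KARS1 rose by 0.25 in replicates 1-2 and read -0.12 in replicates 3-4 (limma adjusted p of the difference = 0.0130). YARS1, for tyrosine, read -0.14 and -0.37, with a limma adjusted p of the difference of 0.0484. The mitochondrial MARS2, SARS2, AARS2, TARS2 and YARS2 also differed, with differences (3-4 minus 1-2) of -0.42, 0.37, -0.35, -0.31 and -0.28. For CARS1, GARS1, IARS1 and MARS1 the difference between sets did not pass, with values from -0.11 to 0.17 and limma adjusted p-values from 0.162 to 0.918. Without control 3 the count of synthetases that differed was 19 of 36, and without control 1, knockout 1, knockout 2 or knockout 3 it was 6, 6, 7 and 7. The count over all tested genes, 41.3% with every library kept, also moved when 1 library was left out. Its range is given below with the other settings. Whether the synthetases moved more than all tested genes was not tested.

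Genes that answer amino acid shortage were examined beside the family, because ATF4 is known to control many cytosolic synthetases together with them. Of 23 listed genes 21 were tested, and all 21 had a difference below 0, with a median of -0.45 beside 0.01 over all tested genes. Limma called 2 of the 21, both lower, beside 13.1% of all tested genes called and 6.1% lower. They were ALDH1L2, a mitochondrial folate enzyme (-0.84 ± 0.17, SE; limma adjusted p = 0.0171), and SLC7A5, a carrier of large neutral amino acids (-0.43 ± 0.09, SE; limma adjusted p = 0.0191). In replicates 3-4, 17 of the 21 were called lower and 0 higher (the background in that set was 22.8% lower), with a median of -0.57. In replicates 1-2, 8 were lower and 2 higher (background 21.3% and 26.6%), with a median of -0.12. The difference between the sets passed for 16 of the 21, beside 41.3% of tested genes.

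Single genes of this list, chosen after their values were seen, show the split. ATF4 itself read -0.09 in replicates 1-2 and fell by 0.81 in replicates 3-4 (limma adjusted p of the difference = 4.12e-04). DDIT3, a target of ATF4 that encodes the stress factor CHOP, read 0.31 in replicates 1-2 and fell by 3.18 in replicates 3-4. Of the 16 genes whose sets differed, 13 were lower in replicates 3-4 and 3 were higher: PHGDH, PSPH and VLDLR. PHGDH and PSPH, enzymes of serine synthesis, fell by 1.07 and 0.46 in replicates 1-2. They read 0.01 and -0.02 in replicates 3-4. VLDLR, no enzyme of that pathway, read -0.87 and -0.05 in the sets. PSAT1, also an enzyme of serine synthesis, went with the majority, with -0.05 in replicates 1-2 and -0.39 in replicates 3-4.

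By library, the median over the cytosolic genes of the value minus its control mean was 0.04, 0.06, -0.13 and 0.02 in controls 1 to 4 and -0.07, -0.04, -0.39 and -0.36 in knockouts 1 to 4. Over the amino acid response genes it was 0.08, 0.08, -0.14 and -0.01 in the controls and -0.12, -0.05, -0.72 and -0.72 in the knockouts. In both groups of genes, knockouts 3 and 4 were the lowest libraries and control 3 was the lowest control. Over the mitochondrial genes the medians stayed between -0.05 and 0.08, and over all tested genes between -0.02 and 0.03. Control 3 lay below knockouts 1 and 2 in both medians. In knockout 3, 14 of the 20 cytosolic genes lay below every control, beside 33.6% of all tested genes, and in knockout 1 it was 8, beside 33.4%. In such bulk values fewer cells with a transcript and less transcript per cell cannot be told apart, and the part of the amino acid response in the synthetase differences was not tested.

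**Figure D4:**
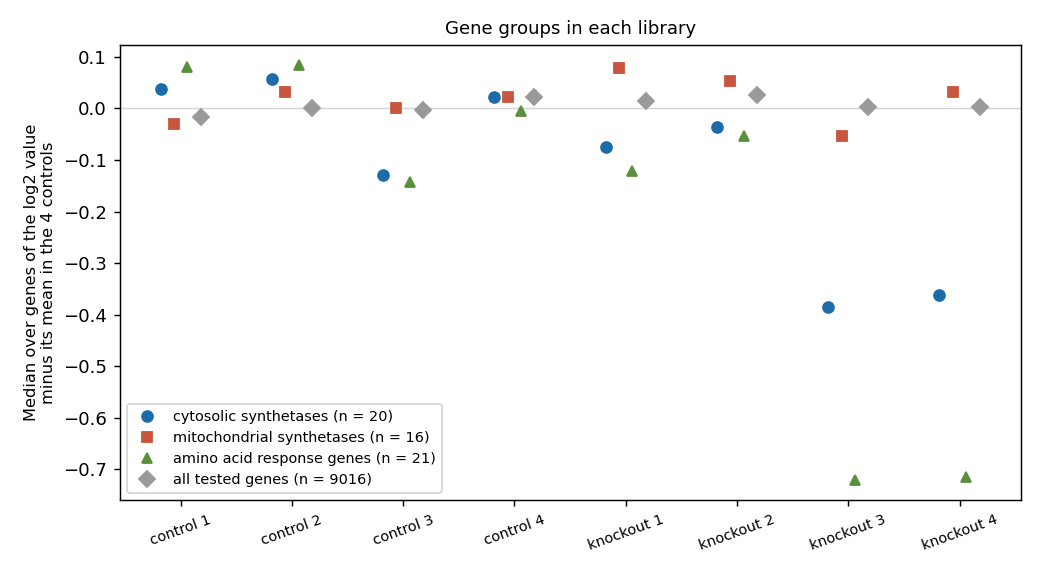
Median over the genes of a group of the log2 value minus its mean in the 4 controls, for each library. Cytosolic synthetases and amino acid response genes are lowest in knockouts 3 and 4 (-0.39 and -0.36, and -0.72 in each), while mitochondrial synthetases and all tested genes stay between -0.05 and 0.08.

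Other lists of the same pathway held 1 called gene each of 4, 4 and 8 tested, beside 13.1% of all tested genes. AARSD1, which edits mischarged tRNA for alanine, rose by 0.30 ± 0.07 (SE; limma adjusted p = 0.0311), alike in replicates 1-2 (0.31) and 3-4 (0.28). It was the call among 4 tested relatives outside the naming rule of the family. MTFMT, which formylates the initiator methionyl-tRNA of mitochondria, rose by 0.24 ± 0.06 (SE; limma adjusted p = 0.0376, and 0.0812 with the replicate block), and was the call among 4 mitochondrial transferase genes. MTIF3, a mitochondrial initiation factor, fell by 0.47 ± 0.10 (SE; limma adjusted p = 0.0173), with -0.47 in replicates 1-2 and -0.48 in replicates 3-4. It was the call among 8 tested mitochondrial translation factors. MTIF3 stood near the filter: its control mean of 1.33 exceeded the required mean of 1, while its knockout mean of 0.86 did not. The gene therefore entered the test only through its control values.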

How the data were processed

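The deposited table holds 1 log2 value per gene symbol and library. The log2 values were quantile normalized between libraries by the authors, as seen from the common mean of 1.07 and median of 1.77 in all 8 columns of the deposited table. Base 2 was inferred from the range, and the unit before the logarithm, the counting program and the annotation are not given in the sources used here. The submitters' processing notes name bcl2fastq, Partek 7.0 and GRCh38. No counts are given, so the depth is unknown and precision rests on the spread between libraries. Levels were not compared between genes, because scaling by length is not stated.

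Groups and replicate numbers came from the titles. Limma 3.58.1 (R 4.3.3) was fitted, with no covariate, to the 9016 genes that had no blank and averaged 1 or more, and the Benjamini-Hochberg adjustment ran over all of them. A second limma model had a knockout effect for each replicate set and their difference. Both fits were tested on simulated data with independent libraries, a setting that leaves out the close pairs and cannot check their effect on the p-values. Promoters came from RefSeq (GRCh38.p14). The replicate number was used as a block only in an alternative fit. Same-numbered libraries deviated together from their group means (Pearson's r across genes of 0.24, 0.27, 0.29 and 0.20 for numbers 1 to 4). Different numbers within a set gave 0.11 to 0.31, so these correlations do not tell pairing by number from the split between the sets. The submitters call the replicates biological.

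Of the members, 2 enter the counts and medians but are not reported here singly. Members and lists were chosen with earlier results of these data known. Values of every library are printed for the 8 cytosolic and 6 mitochondrial genes with the largest absolute difference, a rule that applied because more than 14 genes were called in either fit or led their compartment. Other lists name called genes. Motifs were chosen after the differences were seen. Alternatives were other filters, centring, a pseudocount of 1, a variance trend, the replicate block, a set term, averaged knockout pairs, each set alone, a stricter threshold and leaving out each library.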

Additional observations from a re-analysis of the deposited data

Results flagged for a closer look

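Of the 74 sets of 4 values (37 synthetases in each group), 6 held a library far from the other 3 by Dixon's ratio. Chance alone flags about 1 set in 20. Control 3 was the distant library in 5 of them, on the low side each time: GARS1 (7.07, others 7.29 to 7.31), TARS1 (7.44, others 7.64 to 7.68), EPRS1 (6.23, others 6.46 to 6.48), NARS1 (6.55, others 6.80 to 6.85) and AARS2 (3.00, others 3.16). The remaining library was knockout 4 for VARS1, on the high side (5.05, others 4.86 to 4.90). Control 3 also differed more from controls 1 and 2 over all genes than these did from each other.

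The knockout effect differed between replicates 3-4 and replicates 1-2 for 11 synthetases by the limma interaction. The difference (3-4 minus 1-2) was -0.58 for HARS2, -0.42 for MARS2, -0.37 for KARS1, -0.37 for SARS1, -0.35 for AARS2, -0.31 for TARS2, -0.28 for YARS2 and -0.23 for YARS1. It was 0.46 for WARS2, 0.40 for QARS1 and 0.37 for SARS2. The sets were defined after the libraries had been seen, and 41.3% of all tested genes passed the same test.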

How the results depend on the processing

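The unit before the logarithm and the depth are unknown, quantile normalization hides a shift shared by most genes, and 4 libraries a group, with close pairs among the knockouts, limit the precision. The count of cytosolic calls was 5 or 6, against 6, with no filter on the mean, median centring, a variance trend, the replicate block or a pseudocount of 1. In these settings all calls numbered 924 to 1188, against 1183, but the genes called changed more than the totals. Of 1157 calls with no filter, which tested 13943 genes, 751 were among the 1183. Of 924 calls with the replicate block, 762 were. The replicate block took the mitochondrial count from 0 to 1 (WARS2), took FARSB from the cytosolic one, and changed no other call of a knockout-control difference among the synthetases.

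The cytosolic count was 1 with averaged knockout pairs, 13 in replicates 1-2 alone, 12 in replicates 3-4 alone, 9 with the set term, 3 at an adjusted p-value under 0.01, and 3 to 6 when 1 library was left out (3 without control 4). The mitochondrial count was 1 with a mean of at least 3 and with the set term, 8 in replicates 1-2 alone, 2 in replicates 3-4 alone and 0 to 1 when 1 library was left out. Calls over all genes were 729 with a mean of at least 3, 2274 with the set term, 108 with averaged pairs, 5380 and 2987 in replicates 1-2 and 3-4 alone, 272 under 0.01, and 391 to 1353 when 1 library was left out. The cytosolic median stayed below 0 in all of these settings. The mitochondrial median became -0.030 with a mean of at least 3, which tested 9 of the genes, and -0.038 in replicates 3-4 alone. Differences between the sets numbered 2102 genes and 5 synthetases under 0.01, and 2420 to 4368 genes and 6 to 19 synthetases when 1 library was left out. With the replicate block they numbered 3554 genes and 9 synthetases.

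Reversed signs concerned uncalled genes. Median centring gave -0.0030 for FARSA. In replicates 1-2 alone FARSA was -0.022, QARS1 -0.085, AARS2 0.0022 and YARS2 0.062. In replicates 3-4 alone HARS1 was -0.066, KARS1 -0.117, IARS2 0.037, SARS2 0.157, TARS2 -0.116, RARS2 -0.032, PARS2 -0.078, MARS2 -0.044 and HARS2 -0.094. Leaving out 1 library gave -0.027 to 0.024 for FARSA, -0.126 to 0.049 for SARS2, -0.028 to 0.123 for TARS2, -0.0040 to 0.0999 for RARS2, -0.0087 to 0.148 for PARS2 and -0.027 to 0.220 for VARS2. Except where the setting itself has fewer libraries or genes, the cause was not tested.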

Other observations

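The genes that make and export mature tRNA were described as a further list. Limma called 0 of 12 tested (3 at an unadjusted p-value under 0.05, all higher), with a median difference of 0.03. The background for this list and the next was 1183 of 9016 tested genes called (13.1%). At an unadjusted limma p-value under 0.05 it was 2675 of the 9016, 1441 of them higher. In replicates 3-4 XPOT, the nuclear exporter of tRNA, fell by 0.37 and read 0.02 in replicates 1-2. Limma called 0 of 6 cytosolic elongation factors, with 0 also at an unadjusted p-value under 0.05 and differences from -0.11 to 0.11. EEF1D, whose product belongs to the exchange complex of elongation factor 1, rose by 0.22 in replicates 1-2 and fell by 0.44 in replicates 3-4. XPOT and EEF1D were chosen after their values were seen.

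Of the 118 tested genes with TGATGNAA in the promoter window, 31.4% were called lower in replicates 3-4, and 27.0% of the 111 that are not synthetases, beside 21.9% of the 7305 tested genes without a match. In replicates 1-2 the shares called lower were 21.2% with a match, 19.8% of the 111, and 21.2% without. The amino acid response genes were not left out of the 111. Of 18 listed ones with a promoter entry, 5 had a match. These shares are a description with no test.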
